A study of Mus musculus with 2 samples.

Results

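The 9 genes described here encode MEF2 transcription factors (Mef2a, Mef2c and Mef2d), the class IIa histone deacetylases that repress them (Hdac4, Hdac5, Hdac7 and Hdac9), and 2 proteins through which MEF2 factors activate genes (Ppargc1a and Ep300). They were chosen by function, and every probe set that the array annotation gives to 1 of these symbols alone was taken. This gave 12 probe sets for 9 of the 19938 genes on the array. Their RNA was measured in tibialis anterior muscle, a muscle of the lower leg, of mice carrying either Mef2a +/+ (wild type) or Mef2a -/- (knockout) on a 129Sv/C57BL6 background. Both groups were 2 to 4 months old, included males and females, and had received 50 µl of 10 µM cardiotoxin, a snake venom toxin that kills muscle fibres, in that muscle 7 days before it was collected. RNA of 5 animals was pooled per genotype and each pool was hybridised to 1 array, so the data consist of 2 arrays with no replicates. The labels name neither the deleted part of Mef2a nor a promoter or Cre that would limit the knockout to some cells.

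MEF2 proteins bind an A/T-rich DNA element in the control regions of many muscle genes and act together with myogenic factors such as myogenin. In resting cells class IIa deacetylases sit on MEF2 and hold its targets silent. Calcium-dependent kinases phosphorylate the deacetylases, which then leave the nucleus bound to 14-3-3 proteins and free MEF2 to recruit acetyltransferases such as p300. MEF2 factors also drive Ppargc1a, whose product PGC-1alpha coactivates them and promotes mitochondrial and slow fibre genes.

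In the labelled knockout pool Hdac4 and Ppargc1a read lower, in both of their probe sets, while the other 7 genes stood within 1.2-fold of the wild type pool. By the brightest set of each gene, 2 of 9 (22.2%) were at least 1.2-fold lower, against 14.2% of the genes measurable on the array. Hdac4, the deacetylase that relays loss of nerve activity to muscle genes, was 1.32-fold and 1.56-fold lower by its 2 probe sets. Ppargc1a was 1.42-fold and 1.68-fold lower. Neither Mef2c nor Mef2d, the other MEF2 genes with probe sets of their own, was higher in the labelled knockout pool. With 1 array per genotype no test was possible, and none of these differences can be set against a spread between animals or arrays.

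The promoters of the genes with the largest differences and of those with an element like that bound by MEF2 are printed here, since the deleted factor acts through such elements. Sequences are from RefSeq on GRCm38.p6 and span 250 bases before to 50 bases after an annotated start, 5′ to 3′ on the gene's strand. All 9 genes were matched, with 15 promoters among them. Capitals mark matches to the A/T-rich MEF2 consensus and matches to TGACG or its reverse complement, the half-site bound by CREB, a cAMP-responsive activator of Ppargc1a. Hdac4 lies on the minus strand (chr1:92180292-92180591), as do Ppargc1a (chr5:51567676-51567975), Mef2a (chr7:67372809-67373108) and Hdac5 (chr11:102230123-102230422).
Hdac4: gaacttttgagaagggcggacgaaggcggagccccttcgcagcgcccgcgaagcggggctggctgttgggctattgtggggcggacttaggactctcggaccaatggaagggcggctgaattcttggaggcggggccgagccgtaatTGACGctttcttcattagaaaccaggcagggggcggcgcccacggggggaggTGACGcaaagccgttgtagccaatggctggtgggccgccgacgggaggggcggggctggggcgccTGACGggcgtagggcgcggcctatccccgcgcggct
Ppargc1a: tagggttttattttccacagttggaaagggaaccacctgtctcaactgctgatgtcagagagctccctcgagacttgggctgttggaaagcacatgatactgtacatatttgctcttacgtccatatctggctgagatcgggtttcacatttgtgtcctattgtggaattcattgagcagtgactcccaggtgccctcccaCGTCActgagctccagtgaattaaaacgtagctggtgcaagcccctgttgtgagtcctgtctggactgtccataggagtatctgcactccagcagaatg
Mef2a: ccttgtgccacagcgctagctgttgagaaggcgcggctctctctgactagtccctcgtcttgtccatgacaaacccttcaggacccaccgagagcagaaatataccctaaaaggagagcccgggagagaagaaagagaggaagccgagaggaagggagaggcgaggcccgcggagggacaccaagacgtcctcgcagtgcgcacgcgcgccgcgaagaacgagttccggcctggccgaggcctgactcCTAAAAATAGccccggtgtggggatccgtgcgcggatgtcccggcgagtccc
Hdac5: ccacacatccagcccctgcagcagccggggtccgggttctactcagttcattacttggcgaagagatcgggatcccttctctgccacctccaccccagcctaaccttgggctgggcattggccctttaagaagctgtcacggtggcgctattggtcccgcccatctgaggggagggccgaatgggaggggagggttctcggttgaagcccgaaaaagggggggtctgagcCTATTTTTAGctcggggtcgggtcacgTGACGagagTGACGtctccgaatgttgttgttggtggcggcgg

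On both strands, the MEF2 consensus matched the promoters of Mef2a and Hdac5, 2 of 9 genes, against 3.7% of the 27025 genes with a promoter of this length in the table. Counted by promoter it matched 2 of 15 (13.3%), against 3.19% of 32851. Enrichment was not tested on so few. The site in Mef2a, CTAAAAATAG, begins 2 bases before the start and that in Hdac5, CTATTTTTAG, 20 bases before it. Among 15 described MEF2 target genes with a promoter in the table, 4 held the consensus. TGACG occurred 3 times in the Hdac4 promoter, 2 times in that of Hdac5 and 1 time in that of Ppargc1a. It is a common motif, found in 23% of all genes. Mef2a and Hdac5, the genes with the match, differed by 0.14 and 0.12 on the log2 scale (labelled knockout minus wild type), and Hdac4 and Ppargc1a, which had the lowest differences, had no such match in these windows. The sites do not overlap the TGACG copies. A match is a string of letters and not a measured binding site, and elements outside the windows were not searched.

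All 12 probe sets read above a floor of 4.40 in both pools, the middle of all log2 values in the table and an arbitrary limit. Values are log2 RMA values, and a difference is the labelled knockout value minus the wild type value. For scale, each difference was ranked by size among those of the 500 measurable genes closest in mean level, where a gene is measurable if its higher value reaches the floor.

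Mef2a, the gene targeted in the mice, has 1 probe set (10564451), which read 8.92 in wild type RNA and 9.06 in the labelled knockout pool. The knockout value was thus the higher of the pair, by 0.14, and the difference was larger than that of 34% of the genes closest in level. The annotation ties this probe set to 10 transcript records and gives no exon. A probe set outside the deleted part of a gene can still read RNA from the altered allele, so this value checks nothing about the genotypes, and every direction given here rests on the labels.

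Mef2c, the MEF2 gene that acts in myofibre maintenance and also in endothelial, bone and lymphoid cells, read 9.88 in wild type RNA and 9.80 in the labelled knockout pool (probe set 10406434). The difference of -0.08 was larger in size than those of only 18.8% of the genes closest in level. Mef2d, whose muscle isoform promotes late differentiation, read 7.90 and 7.86 in its brighter probe set (10493177), a difference of -0.05. Its other probe set (10493189), which shares no transcript record with the first, read 5.38 and 5.35, a difference of -0.03. Both sets of Mef2d thus put the pools within 0.05 of each other. The fourth family member, Mef2b, shares its probe set with Borcs8 and Gm45929. That set read 5.12 in wild type RNA and 5.16 in the labelled knockout pool and cannot be assigned to Mef2b.

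**Figure D1:**
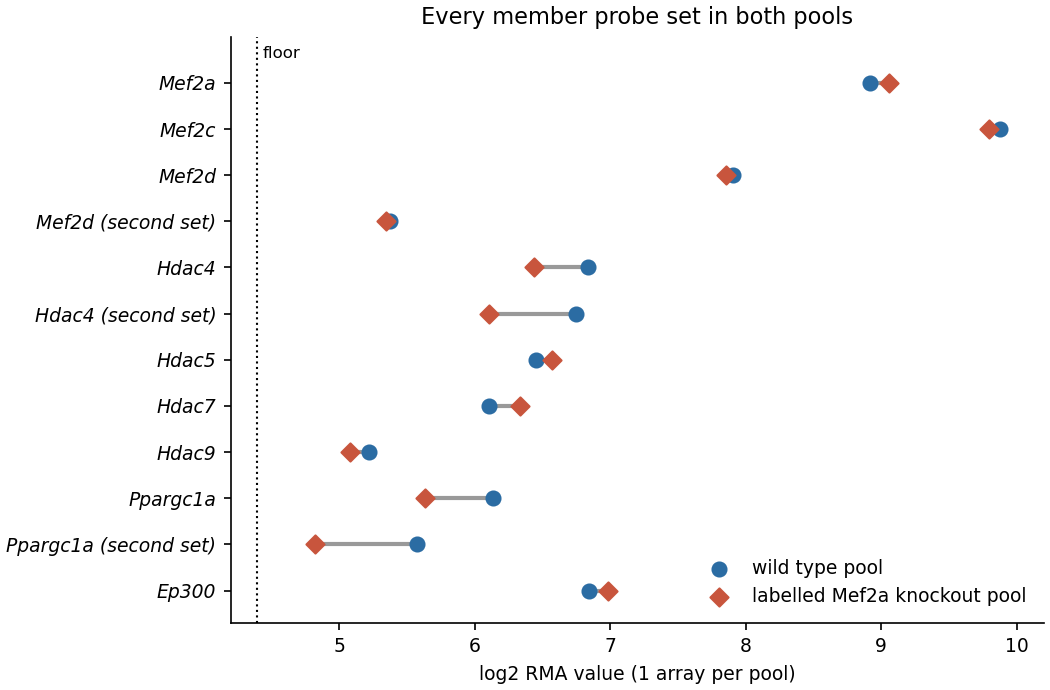
Log2 RMA values (horizontal axis) of the 12 probe sets of the 9 genes in the wild type pool (circles) and the labelled Mef2a knockout pool (diamonds), with 1 array per pool and no error bars. The bars joining the points are long for both sets of Hdac4 (0.40 and 0.64) and of Ppargc1a (0.50 and 0.75) and at most 0.23 for the others. Levels of different probe sets cannot be compared with each other.

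Hdac4 read 6.83 in wild type RNA and 6.44 in the labelled knockout pool in its brighter probe set (10356628), and 6.75 and 6.11 in the other (10356626). The differences were -0.40 and -0.64, larger in size than those of 81.8% and 94% of the genes closest in level. Only 6.69% and 1.21% of all measurable genes had a lower difference. The 2 sets are annotated to 4 and 3 transcript records, of which 2 are shared, so they read overlapping transcripts of the gene and are not independent of each other.

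The other class IIa deacetylases did not share this difference. Hdac5, which exercise and calcium signals drive out of the nucleus, read 6.45 in wild type RNA and 6.57 in the labelled knockout pool (probe set 10391577), a difference of 0.12. Hdac7, which is prominent in endothelial cells and developing T cells, read 6.10 and 6.33 (10432006), and its difference of 0.23 was the highest of the 12 probe sets. It exceeded the size of 61% of the differences at like level. Hdac9, which includes a short form without a catalytic domain that is itself a MEF2 target, read 5.22 and 5.08 (10399973), a difference of -0.14. Among the 4 genes of the class, 2 were higher and 2 lower, and the median was -0.01. The differences of Hdac5, Hdac7 and Hdac9 lie within 1.2-fold, and whether Hdac4 differs from them could not be tested with 1 array per pool.

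Ppargc1a read 6.14 in wild type RNA and 5.63 in the labelled knockout pool in its brighter probe set (10529979). The second set (10529977) read 5.57 and 4.82, which brought it to 0.43 above the floor in the knockout pool. The differences were -0.50 and -0.75, larger in size than 91% and 95.4% of those at like level, and only 3.21% and 0.679% of measurable genes had a lower one. All 3 transcript records of the second set are among the 8 of the first. Ep300, which encodes the acetyltransferase p300, read 6.84 and 6.98 (10425527), a difference of 0.14 in the other direction from Ppargc1a. It exceeded the size of 39% of differences at like level.

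Counted by the brightest probe set of each gene, 0 of the 9 genes were 1.5-fold higher and 0 were 1.5-fold lower, against 6.45% and 1.9% of the 11787 measurable genes. Past 2-fold there were again 0 in either direction, against 1.7% higher and 0.187% lower. At 1.2-fold, 2 of 9 genes (22.2%) were lower and 0 higher, against 14.2% and 21.5% of measurable genes, so the share of lower genes was not far from that of the array as a whole. Over the 12 single probe sets, the second sets of Hdac4 and Ppargc1a were at least 1.5-fold lower and 0 sets were 1.5-fold higher, against 1.85% and 6.21% of the 13004 measurable probe sets. With all probe sets of a gene averaged, the difference of Ppargc1a was -0.62, or 1.54-fold lower, which passes the 1.5-fold limit, and that of Hdac4 was -0.52. Over the 9 genes, 4 were higher and 5 lower, and the median difference was -0.05, against 0.03 over all measurable genes.

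**Figure D2:**
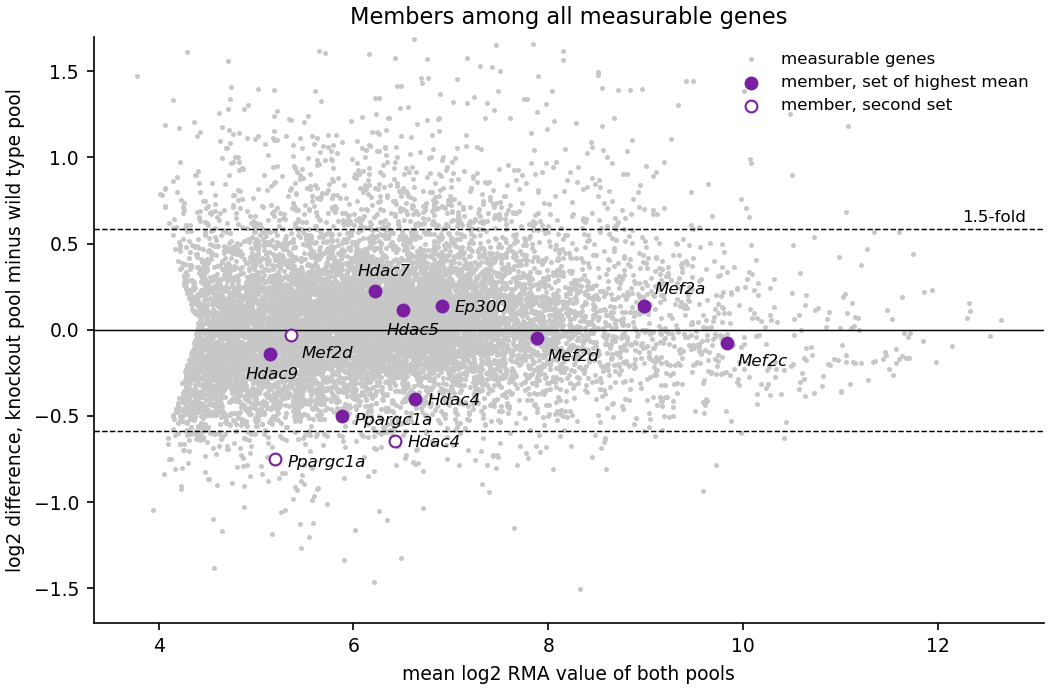
Log2 difference (labelled knockout pool minus wild type pool, vertical axis) against the mean log2 value of both pools (horizontal axis) for measurable genes (grey), with the 9 genes in purple, filled for the set of highest mean and open for second sets. Dashed lines mark 1.5-fold, and 32 measurable genes fall outside the vertical axis, which ends at 1.7. The points of Hdac4 (-0.40 and -0.64) and of Ppargc1a (-0.50 and -0.75) lie on the lower side, the second set of each past the dashed line, and the others lie between -0.14 and 0.23.

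Agreement between 2 probe sets of a gene gave the only gauge, a rough one, of scatter between probes within these arrays. For the 488 genes with 2 measurable probe sets, the differences of the 2 sets lay a median of 0.11 apart and were within 0.38 in 90% of these genes. The sets of Hdac4 lay 0.24 apart and those of Ppargc1a 0.25 apart, wider than 77% and 78.1% of these genes, whereas those of Mef2d were 0.02 apart. Both sets were at least 1.2-fold lower in 27 of the 488 genes (5.53%), and Hdac4 and Ppargc1a were among them. This scatter covers the probes only, because both sets read the same RNA on the same array.

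**Figure D3:**
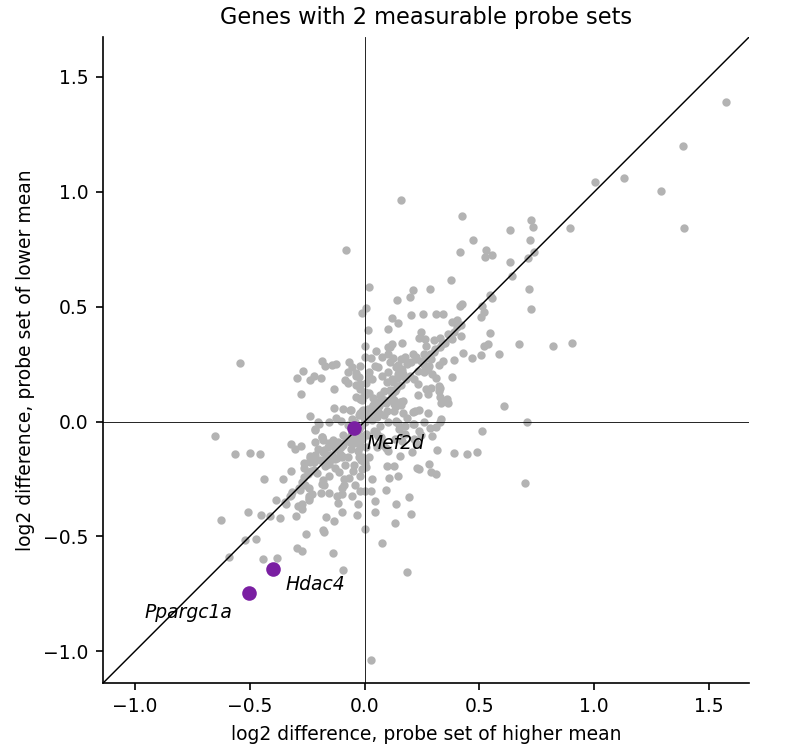
Log2 differences (labelled knockout pool minus wild type pool) of the 488 genes with 2 measurable probe sets, the brighter set on the horizontal and the dimmer set on the vertical axis, with the line of equality. Hdac4 and Ppargc1a sit in the lower left, low in both sets and below the line, and Mef2d sits at the origin.

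Markers of the cell types of injured muscle also differed between the pools. Of 13 muscle fibre markers, 13 were lower in the labelled knockout pool, against 44.5% of measurable genes. Their differences ran from -0.39 to -0.04 with a median of -0.19, and their mean level was 11.33 in the wild type and 11.12 in the knockout pool. Of 13 macrophage markers, 13 were higher, against 53.3% of measurable genes. Their differences ran from 0.80 to 2.11 with a median of 1.13, and their mean level was 7.71 and 8.91. None of these markers was below the floor in both pools. The lowest fibre marker, the calcium channel gene Cacna1s, differed by -0.39, which is level with the brighter set of Hdac4 (-0.40). No fibre marker was as low as the second set of Hdac4 (-0.64) or either set of Ppargc1a (-0.50 and -0.75). The fibre markers read from 9.3 (Cacna1s, the largest difference) to 12.6 (Acta1, the smallest) in wild type RNA. Hdac4 read 6.83 and 6.75 there and Ppargc1a 6.14 and 5.57, so these differences are not compared at like level. Mb (-0.53), Slc2a4 (-0.61) and Fbxo32 (-0.75) had lower differences than every fibre marker. They were picked for their large differences from the lists of described MEF2 targets and of the HDAC4 route below. Of 9 endothelial markers, 3 were higher and 5 lower (median -0.05, from -0.29 for Kdr to 0.84 for Vwf), and 6 of 7 fibroblast markers were higher (median 0.12). All 6 measured lymphocyte markers were below the floor in both pools, and 2 of 3 measured Schwann cell markers reached it (Mbp at 0.47 and Pmp22 at 0.09). The part of cell composition in the differences of the 9 genes, or of any gene in the lists below, was not tested. In bulk tissue fewer cells of a type and less RNA per cell cannot be told apart.

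Among 24 genes that help to move class IIa deacetylases out of the nucleus (kinases, 14-3-3 genes and the exportin Xpo1), 15 were higher and 9 lower. Their median was 0.13, against -0.03 over all genes and 0.03 over measurable ones. Of the 22 at the floor 1 (4.55%) was 1.5-fold higher and 0 lower, against 6.45% and 1.9% of measurable genes. That 1 was Camk1d, a calcium/calmodulin-dependent kinase, which read 4.48 in wild type RNA and 5.24 in the labelled knockout pool. Its wild type value lay just above the floor of 4.40. Camk2b, a CaM kinase II gene, read 7.77 and 7.24, a difference of -0.53. The other CaM kinase II genes differed by -0.32 (Camk2a), -0.21 (Camk2g) and 0.02 (Camk2d). Ywhaz, the 14-3-3 zeta gene, read 9.41 and 9.91, a difference of 0.51, or 0.40 with all its probe sets averaged.

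Calcineurin, a calcium-activated phosphatase, acts on NFAT and MEF2 in parallel to these kinases. Of its 15 listed genes 9 were higher and 5 lower, with a median of 0.07. Past 1.5-fold, 1 (6.67%) was higher and 0 lower, against 6.45% and 1.9% of measurable genes. Rcan1, a calcineurin inhibitor that is also a target of its signalling, read 6.84 in wild type RNA and 7.55 in the labelled knockout pool (1.64-fold higher). The transcription factor gene Nfatc1 differed by 0.48. Myoz1, which encodes a calcineurin-binding protein of the Z-disc, differed by -0.38.

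The p38 and ERK5 kinases phosphorylate MEF2 proteins and raise their activity. Here 2 of 9 listed genes were higher and 6 lower, with a median of -0.08. Map2k6, which activates p38, read 6.70 in wild type RNA and 6.07 in the labelled knockout pool. It was the 1 of 8 at the floor past 1.5-fold (12.5%, against 1.9% of measurable genes lower at that limit). Mapk12, the p38 gamma gene of skeletal muscle, differed by -0.38 and Map2k3, another p38 activator, by -0.20.

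Corepressors and deacetylases of other classes share the repressor complexes of the class IIa enzymes or act beside them. Of 16 measured genes 5 were higher and 9 lower, and the median was -0.02. Past 1.5-fold, 0 were higher and 0 lower, against 6.45% and 1.9% of measurable genes. Hdac11, the sole class IV deacetylase, differed by -0.43, the mitochondrial deacetylase gene Sirt3 by -0.35, and Tbl1xr1, a subunit of the NCoR complex, by 0.42. Among 12 coactivators and acetyltransferases besides Ep300, 8 were higher and 4 lower, with 0 past 1.5-fold against the same shares. Their median of 0.03 turned to -0.03 with the trend on mean level removed. Vgll2, a muscle cofactor of TEAD factors and MEF2, differed by -0.40, Ncoa3 by 0.34 and Mamstr, a MEF2 coactivator of muscle, by -0.19.

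The listed partners and relatives of PGC-1alpha were near 0 as a group, with 4 of 12 higher, 7 lower and a median of -0.04. Esrra, which encodes the estrogen-related receptor through which PGC-1alpha raises mitochondrial genes, was the 1 gene past 1.5-fold among 11 at the floor. It read 6.70 in wild type RNA and 6.09 in the labelled knockout pool (1.53-fold lower). That is 9.09% of those 11 genes, against 1.9% of measurable genes lower at that limit. Esrrg, a related receptor, differed by -0.26, and Tfam, a factor of mitochondrial DNA, by 0.23. Ppargc1a itself is not in this list.

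Of 17 genes described as MEF2 targets, 14 were lower (82.4%, against 44.5% of measurable genes) and 3 higher in the labelled knockout pool. Their median was -0.21, against -0.19 for the fibre markers and -0.03 over all genes. With the trend on mean level removed, the medians were -0.28 for the targets and -0.16 for the fibre markers. That trend was fitted on all genes, fibre genes included. It can thus also take away a difference that genes of a level share, and the 2 adjusted medians do not show which list differed more. The mean wild type level was 8.76 for the targets and 11.33 for the fibre markers. At 1.2-fold 8 of the 17 targets were lower (47.1%, against 30.8% of the fibre markers and 14.2% of measurable genes). At 1.5-fold 1 of the 17 was lower (5.88%, against 1.9% of measurable genes). Slc2a4, the insulin-responsive glucose transporter gene and a target of both MEF2 and PGC-1alpha, read 8.78 in wild type RNA and 8.17 in the labelled knockout pool (1.52-fold lower). Hrc, which encodes a calcium-binding protein of the sarcoplasmic reticulum, read 9.16 and 8.61, and Mb, the myoglobin gene, 10.71 and 10.18. Ckm, which is also among the fibre markers, is in this list as well. Most of the 17 are fibre genes, and the fibre and macrophage marker medians were -0.19 and 1.13 in the same RNA. The part of cell composition in the differences of the 17 genes was not tested. With 1 bulk pool per genotype it cannot be told apart from a change of these RNAs within fibres.

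HDAC4 is known in denervated muscle to repress Dach2, which frees Myog and in turn the acetylcholine receptor genes and the ubiquitin ligase genes of atrophy. Of 9 listed genes of this route 4 were higher and 5 lower (median -0.04). Of the 8 at the floor 2 (25%) were 1.5-fold lower and 1 (12.5%) higher, against 1.9% and 6.45% of measurable genes. Fbxo32, the atrogin-1 ligase gene, read 8.16 in wild type RNA and 7.42 in the labelled knockout pool (1.68-fold lower). Musk, the receptor kinase of the neuromuscular junction, read 7.27 and 6.65. Runx1, which denervated muscle induces, read 7.83 and 8.42, a difference of 0.59 that was 0.57 after centring and 0.54 with the trend on mean level removed, both under 1.5-fold. Dach2 was below the floor in both pools. Myog differed by -0.06, the acetylcholine receptor genes Chrna1 and Chrng by 0.15 and 0.23, and the ubiquitin ligase gene Trim63 by -0.55. In the same RNA the fibre and macrophage marker medians were -0.19 and 1.13, and the part of cell composition in this list was not tested.

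Splicing decides which MEF2 isoforms a cell makes, and the annotation does not say which exons the probe sets used here read. Among 7 regulators of that splicing or of the muscle splicing program, 3 were higher and 4 lower, with 0 past 1.5-fold. Of measurable genes 6.45% were higher and 1.9% lower at that limit. Rbfox1, which favours the muscle exon of Mef2d, differed by -0.29. Ptbp1, a repressor of muscle exons, differed by 0.33, or 0.17 with all its probe sets averaged, and Srpk3, a muscle kinase of splicing factors that MEF2 activates, by -0.21.

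**Figure D4:**
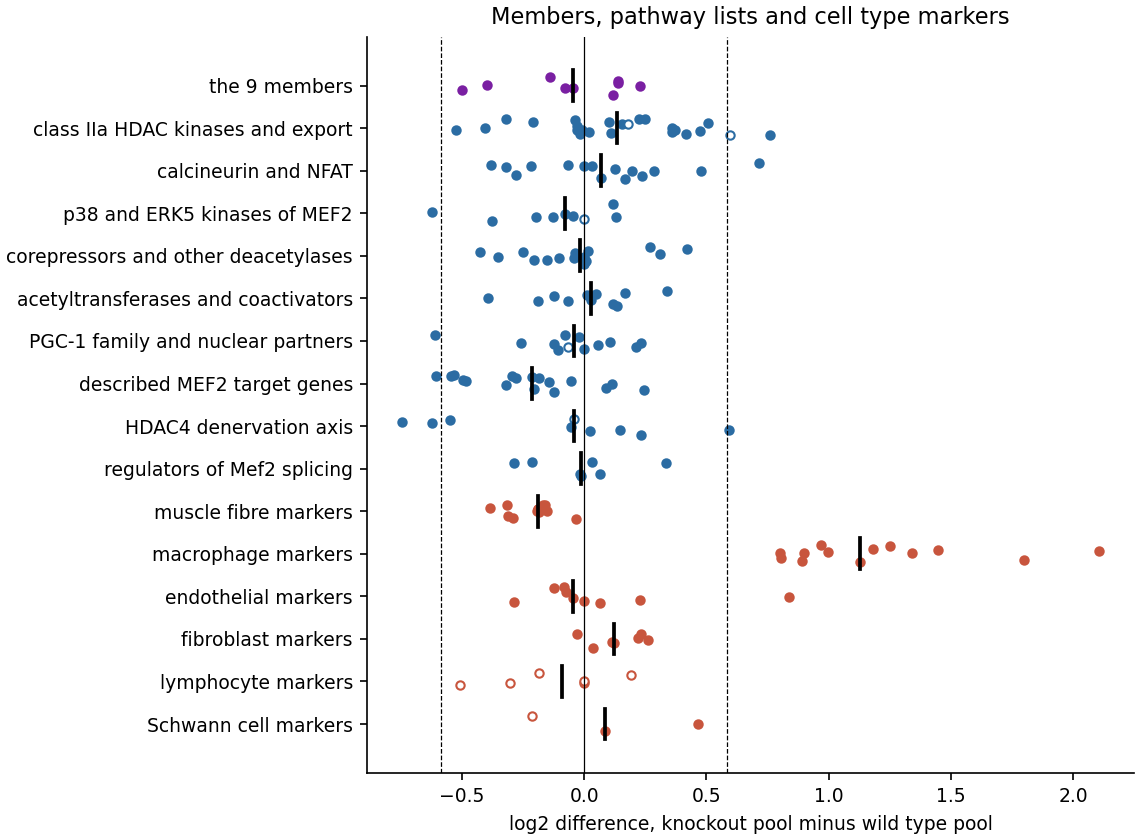
Log2 differences (labelled knockout pool minus wild type pool, horizontal axis) of the 9 genes (purple), the 9 pathway lists (blue) and the 6 cell type marker lists (red), each point a gene and each black bar the median of its list. Open points are genes below the floor in both pools, and dashed lines mark 1.5-fold. The macrophage markers all lie at 0.80 or above, and the medians of the other lists lie between -0.21 and 0.13.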

How the data were processed

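The deposited table holds 1 log2 expression value per probe set and array, which, per the submitters' processing notes, the authors made in Affymetrix Expression Console by RMA. The software version is not given in the sources used here. RMA corrects background, equalises the distributions of the arrays and summarises probes, so a change shared by most genes cannot be seen. With 2 arrays its median polish can return 1 value for both: 1179 of 19938 genes (5.91%) had identical values in both pools, and 0 of the 9 genes described did.

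Of 35557 probe sets, 21789 had 1 gene symbol, 1621 several and 12147 none in the platform annotation. A gene was represented by its probe set of highest mean, and was measurable when its higher value reached 4.40, which 11787 genes did. The software was pandas 2.3.3 and numpy 2.4.6 under Python 3.11.15. No test or p-value was possible, and the number of arrays limits the precision. Fixed limits of 1.5-fold and 2-fold were used. The counting was tested on simulated data. Alternatives were centring on the median of measurable genes, subtraction of a loess curve on mean level (span 0.3, statsmodels 0.14.6), averaging a gene's probe sets, other floors and a limit of 1.2-fold. Besides the 9 genes, up to 3 genes per list with the largest differences at the floor were named, and other genes were named after their values were seen. The genes and lists were chosen with earlier results of these data known. Listed genes without a probe set of that symbol alone were not analysed here.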

Additional observations from a re-analysis of the deposited data

How the results depend on the processing

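No paired analysis was possible because each genotype has 1 array, and for the same reason no array could be left out. Over the 9 genes and 3 alternatives (median-centred differences, loess trend removed, mean of all probe sets), 25 of 27 values moved by less than 0.11, the median gap between 2 probe sets of a gene, and no value changed sign. The other 2 came from averaging all probe sets, which took Hdac4 from -0.40 to -0.52 and Ppargc1a from -0.50 to -0.62. That average also raised the number of the 9 genes at least 1.5-fold lower from 0 to 1, and a limit of 1.2-fold raised it to 2. At 1.2-fold, 2530 measurable genes (21.5%) were higher and 1673 (14.2%) lower, against 760 (6.45%) and 224 (1.9%) at 1.5-fold. Of the 122 genes in the pathway lists, 114 were at the floor. Among those 114, 16 were 1.2-fold higher and 24 lower, against 3 and 5 at 1.5-fold. The number of genes at least 1.5-fold lower was 618 when the floor was dropped and 94 when it was set at percentile 75 of the table, because more or fewer dim genes were counted. Past 2-fold these numbers were 43 and 10, against 22. Of the remaining counts, 26 stayed within 1.5 times their main value, and 30 were 0 under both settings, which says nothing about stability. Directions rest on the labels, since the probe set of Mef2a did not read lower in the pool labelled knockout.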
